A study of Mus musculus with 8 samples.

Results

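The synaptonemal complex genes are 9 mouse genes, Sycp1, Sycp2, Sycp3, Syce1, Syce2, Syce3, Tex12, Hormad1 and Hormad2, that were chosen by name for their role in chromosome synapsis and not for any measured value. Earlier results of these data were known when they were chosen. The 9 genes were described by the positions of ZGLP1 binding, as 9 of the 21631 protein-coding genes on the autosomes and X. ZGLP1 is a nuclear protein with GATA-like zinc fingers, and the study's title names it a determinant of the oogenic fate. The binding positions were a single list of 32927 peak summits, each the base at the top of a peak of sequenced fragments in chromatin immunoprecipitation (ChIP). A summit in it carries neither its height nor the library it came from, so it is present or not, with no error of its own, and how deeply the libraries were sequenced is unknown.

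Zglp1 with a V5 tag was overexpressed in all cells under doxycycline (Dox), in a C57BL/6 x DBA2 background, and chromatin was collected with an antibody to V5. The 5 ChIP libraries, made from equal cell numbers, were c7 and c8 primordial germ cell-like cells (PGCLCs) given Dox and retinoic acid (RA), c7 and c8 PGCLCs given Dox only, and embryonic stem cells (ESCs) given Dox and RA. The 3 input libraries came from the c8 PGCLCs of either treatment and from the ESCs. PGCLCs are made in culture from ESCs by way of an epiblast-like state, and c7 and c8 are days of their expansion culture. PGCLCs were treated from day 3 and sorted for the SC and mCherry reporters, and ESCs were treated for 24 h and sorted for mCherry. Each group had 1 library, and all 8 libraries used here came from cells given Dox, so binding was of an introduced protein and no comparison of treatments, days or cell types could be made.

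The synaptonemal complex is a zipper of protein that holds paired homologous chromosomes together along their length in meiotic prophase. Its lateral elements, which contain SYCP2 and SYCP3, coat the chromosome axes, SYCP1 forms the transverse filaments that span the gap, and SYCE1, SYCE2, SYCE3 and TEX12 build the central element in the middle. HORMAD1 and HORMAD2 lie on axes that are not yet paired and leave them as the complex forms. In female mice germ cells enter meiosis in the fetal ovary, and these genes are among those switched on at that step.

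Summits stood at the start of 5 of the 9 genes and nowhere near the start of the other 4. Hormad1, Sycp1, Tex12, Sycp2 and Syce2 each had a summit within 283 bases of an annotated start, while Syce3, Hormad2, Syce1 and Sycp3 had their closest one 11104, 20272, 34019 and 44060 bases from a start. These 5 of 9 genes (55.6%) lie at the background, since 56.4% of all 17274 protein-coding genes with an annotated start in RefSeq had a summit no further than 1 kb from it. Each element with several genes was split: the central element had a start summit at Tex12 and Syce2 but not at Syce1 and Syce3, the lateral element at Sycp2 but not Sycp3, and the HORMA-domain pair at Hormad1 but not Hormad2. With the count at the background, these splits describe single genes and were not tested as a trait of the complex.

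Promoter sequences of 6 genes are shown because they contrast starts with and without a summit. Each is the 250 bases before the annotated start, from RefSeq on GRCm38.p6, read 5′ to 3′ on the gene's own strand. Capitals mark the E-box CACGTG, a palindrome bound by MYC, MAX and related factors, and the E2F-type letters TTTCGCGC, TTCCCGCC or GCGGGAA on either strand, where overlapping E2F matches count as 1 site.
Hormad1 (chr3:95559427-95559676, plus strand): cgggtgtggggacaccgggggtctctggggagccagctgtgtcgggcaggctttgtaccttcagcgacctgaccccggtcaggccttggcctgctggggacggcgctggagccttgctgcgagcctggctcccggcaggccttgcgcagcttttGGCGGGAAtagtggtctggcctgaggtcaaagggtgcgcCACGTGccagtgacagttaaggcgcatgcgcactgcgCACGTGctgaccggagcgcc
Tex12 (chr9:50561269-50561518, minus strand): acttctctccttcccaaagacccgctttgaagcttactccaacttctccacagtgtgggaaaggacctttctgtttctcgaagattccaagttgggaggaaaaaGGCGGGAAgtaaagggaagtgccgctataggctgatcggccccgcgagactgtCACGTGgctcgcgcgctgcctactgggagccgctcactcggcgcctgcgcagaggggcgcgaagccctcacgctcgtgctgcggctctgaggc
Sycp1 (chr3:102936101-102936350, minus strand): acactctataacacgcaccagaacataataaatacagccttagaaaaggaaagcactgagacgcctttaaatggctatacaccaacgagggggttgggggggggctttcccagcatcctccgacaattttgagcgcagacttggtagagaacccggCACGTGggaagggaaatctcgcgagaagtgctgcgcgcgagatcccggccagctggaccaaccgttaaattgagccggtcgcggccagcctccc
Sycp2 (chr2:178407659-178407908, minus strand): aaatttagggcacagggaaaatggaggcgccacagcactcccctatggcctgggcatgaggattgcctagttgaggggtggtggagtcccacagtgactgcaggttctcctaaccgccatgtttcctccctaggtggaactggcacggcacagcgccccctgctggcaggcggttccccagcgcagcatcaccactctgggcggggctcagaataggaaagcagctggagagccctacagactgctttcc
Sycp3 (chr10:88459337-88459586, plus strand): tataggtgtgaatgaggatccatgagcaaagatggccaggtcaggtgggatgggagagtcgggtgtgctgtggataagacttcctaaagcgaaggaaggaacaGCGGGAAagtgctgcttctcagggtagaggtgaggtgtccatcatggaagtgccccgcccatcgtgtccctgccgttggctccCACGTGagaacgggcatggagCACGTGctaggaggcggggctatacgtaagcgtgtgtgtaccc
Hormad2 (chr11:4441083-4441332, minus strand): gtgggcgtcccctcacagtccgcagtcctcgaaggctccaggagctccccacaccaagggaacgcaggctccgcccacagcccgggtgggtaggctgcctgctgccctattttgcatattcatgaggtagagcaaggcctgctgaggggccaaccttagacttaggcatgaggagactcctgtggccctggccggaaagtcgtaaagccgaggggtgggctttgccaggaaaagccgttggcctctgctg
The first 4 have a summit within 143 bases of the start and the last pair have none within 20 kb. An E-box stands in Hormad1, Tex12, Sycp1 and Sycp3, so these letters occur on either side of that divide, and neither Sycp2 nor Hormad2 holds a capital.

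**Figure D1:**
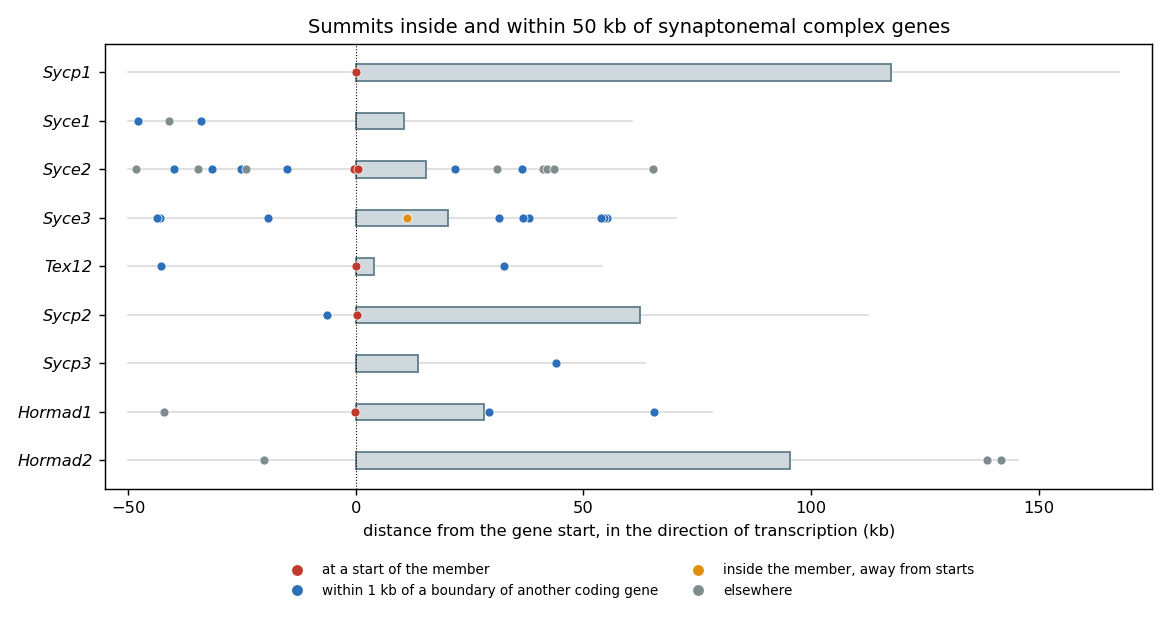
Summits (points) inside and within 50 kb of each gene, placed by distance from the gene start in the direction of transcription in kb. Grey bars are the gene bodies, and point colours give what lies at the summit. Summits at the gene's own start (red) are seen for Sycp1, Syce2, Tex12, Sycp2 and Hormad1, and the other 4 genes have none.

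Sycp1, the transverse filament gene (chromosome 3, 102818499 to 102936100, minus strand), had 1 summit, at 102936017, 83 bases downstream of its start. No other lay within 50 kb of the 117602 bases of the gene. The neighbouring summits were 200726 bases away on the side of the gene body and 59865 bases away on the upstream side. A start summit that was the only one within 50 kb of the gene was found for 4.43% of protein-coding genes with an annotated start, and Sycp1 was the only one of the 9 genes with this arrangement.

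Among the central element genes, Tex12 (chromosome 9, 50557148 to 50561268, minus strand) had a summit at 50561178, 90 bases downstream of its start. The span of Il18, a cytokine gene, covers all of Tex12, but its boundaries lie further from that summit than those of Tex12. The other summits within 50 kb stood at neighbouring genes, at 50528588, 128 bases from a boundary of Pts, and at 50603936, 35 bases from one of Timm8b.

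Syce2 (chromosome 8, 84872111 to 84887446, plus strand) was the only one of the 9 genes with a pair of summits at its start. They lay 817 bases apart on either side of it, at 84871724, 387 bases upstream of the first annotated start, and at 84872541, 283 bases downstream of the second. A further summit within 10 kb, at 84893852, was 69 bases downstream of the start of Gcdh, a lysine breakdown enzyme gene whose span overlaps the far end of Syce2. Syce2 had 16 summits within 50 kb, more than any other of the 9, and only 2.06% of protein-coding genes had more.

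Syce3 (chromosome 15, 89390174 to 89410503, minus strand) had no summit at either of its annotated starts. Its single summit within 10 kb, at 89399159, lay inside the gene, 11104 bases downstream of the nearer start and 8985 bases from the far end. It was the only one of the summits inside these genes that was away from a start. A further 9 summits lay within 50 kb, of which 8 were within 1 kb of a start of another protein-coding gene, among them Odf3b, Sco2, Ncaph2, Lmf2, Chkb and Mapk8ip2.

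Syce1 (chromosome 7, 140777229 to 140787854, minus strand) had no summit within 10 kb. It sat in a stretch of 386277 bases with no summit, which ended at 140821873 within Zfp941, a zinc finger gene. The 3 summits within 50 kb were all upstream of Syce1, at 34019, 41004 and 47843 bases, and the first and last of them lay within 1 kb of boundaries of Zfp941 and Urah.

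The lateral element genes are described next. Sycp2 (chromosome 2, 178345295 to 178407776, minus strand) had a summit at 178407515, 143 bases downstream of the annotated start and 261 bases inside the upper end of the gene. A second one, 6400 bases upstream of the gene at 178414176, lay where the spans of Ppp1r3d and Fam217b overlap, 287 bases downstream of the start of Ppp1r3d.

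Sycp3 (chromosome 10, 88459587 to 88473236, plus strand), whose protein is widely used to stain meiotic axes, had no summit inside it or within 30 kb. It lay whole within a stretch of 123885 bases between summits at 88379762 and 88503647. The second of these was 323 bases downstream of the start of Chpt1, a phospholipid synthesis gene that overlaps the far end of Sycp3, and it was the only summit within 50 kb.

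Of the HORMA-domain genes, Hormad1 (chromosome 3, 95559677 to 95587863, plus strand) had the summit closest to a start, at 95559608, 69 bases upstream. The next one, at 95589011, was 1148 bases past the far end of Hormad1 but 77 bases downstream of the start of Golph3l, a Golgi protein gene. Hormad2 (chromosome 11, 4345801 to 4441198, minus strand) had none inside its 95398 bases. It lay in a stretch of 158864 bases with no summit, and its 3 summits within 50 kb, at 4461354, 4302490 and 4299404, were each over 1 kb from every protein-coding boundary. The last pair lay within Gm11958, a long noncoding RNA gene.

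Counted over the 9 genes, 5 had a summit inside (55.2% of all protein-coding genes had one), 6 had one inside or within 10 kb (69.2%) and 9 had one within 50 kb (79.2%). None of these counts is far from its background, and no test was run on them. The gene with the most distant summit that was still within 10 kb was Syce3, at 8985 bases from a boundary, and the closest beyond it was Hormad2, at 20156 bases. The median distance to the closest summit was 387 bases from a boundary for the 9 genes and 616 bases for all protein-coding genes. From an annotated start it was 283 and 334 bases. A stretch of over 100 kb between neighbouring summits held 3 of the 9 genes, Syce1, Sycp3 and Hormad2, and 30.2% of all protein-coding genes.

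**Figure D2:**
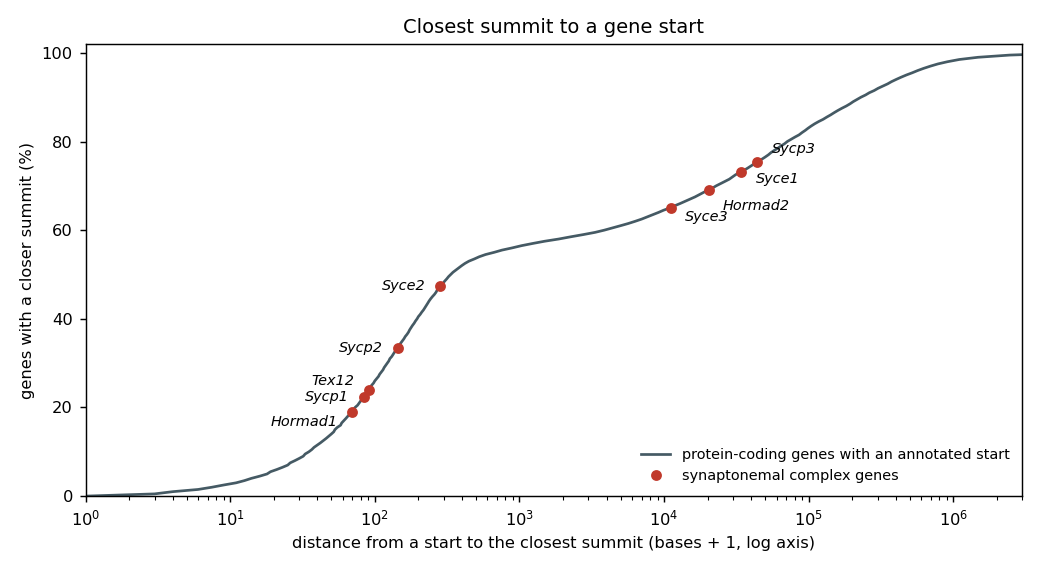
Distance from an annotated start to the closest summit (x axis, bases on a log axis) against the percentage of protein-coding genes with a closer one (y axis), for all 17274 genes with a start (line) and the 9 synaptonemal complex genes (points). Hormad1, Sycp1, Tex12, Sycp2 and Syce2 lie on the rise below 1 kb, between 69 and 283 bases, and the other 4 genes at 11104 bases or more.

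Most summits near these genes lay close to a gene boundary, but not always to theirs. Of the 10 summits inside the genes or within 10 kb, 6 lay at a start of the synaptonemal complex gene itself, 3 within 1 kb of a boundary of another protein-coding gene and 1, that of Syce3, at neither. Of the 43 within 50 kb, 6 lay at a start of the gene itself, 23 (53.5%) within 1 kb of a boundary of another protein-coding gene and 1 deep inside Syce3. The other 13 lay over 1 kb from every protein-coding boundary, though 1 of them was 79 bases from an annotated start of Mast1. Over all 32912 summits on the autosomes and X, 42.3% lay within 1 kb of a protein-coding boundary. These shares are not alike. The 53.5% leaves out summits at the synaptonemal complex gene's own start, while the 42.3% counts any protein-coding boundary. The 43 were also picked for lying near a gene. The summits within 10 kb past the far end of Hormad1 and of Syce2 were also within 10 kb of other protein-coding genes, and they were closer to the start of Golph3l and of Gcdh.

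Most start summits of these genes lay past the start. At Sycp1, Tex12 and Sycp2 the summit lay downstream of the start, by 83, 90 and 143 bases, at Hormad1 upstream, and at Syce2 on either side. Over all 9742 protein-coding genes counted above with a start summit, the median position was 18 bases downstream, and 55.0% lay at or downstream of the start. No replicate gives the spread of a summit's position, so the order of Hormad1, Sycp1 and Tex12, at 69, 83 and 90 bases, cannot be told.

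The promoters of the 9 genes were read over 300 bases, from 250 before to 50 after each annotated start, for motifs searched on either strand. A match is a run of letters and not a bound site. The letters AGATAA and TGATAA, the core recognised by GATA factors, stood in the windows of 0 of the 9 genes, against 18.2% of all 17274 genes. Among all genes with a start summit the share was 10.7%, and among those without 27.8%. The windows also differed in base content, with a median of 62.3% G and C at starts with a summit within 1 kb and 49% at the others. Shares at like base content were not computed. Of the start summits of these genes only that of Hormad1 lay inside a window, so the letters under the others were not read. The E-box stood in 5 of the 9, Hormad1, Tex12, Sycp1, Syce2 and Sycp3, against 9.02%. The E2F-type letters stood in 4 of the 9, Hormad1, Tex12, Syce2 and Sycp3, against 7.39%. Of all genes with an E-box 76.4% had a start summit, against 54.4% of genes without it. For the E2F-type letters these shares were 86.1% and 54%. E-box and E2F-type sites are known in mouse ESCs as sites of the repressive complex that holds MGA and E2F6 and keeps germline genes silent.

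All 4 genes with E2F-type letters had an E-box in the same window, an arrangement found in 125 of all 17274 genes (0.724%). Of the 4 genes 3 had a start summit, the exception being Sycp3, as did 110 of the 125 (88.0%). This share was close to the 85.9% of all genes with E2F-type letters but without the pair, and 75.4% of those with an E-box but without the pair had one. Of the 4 synaptonemal complex genes with neither motif, Syce1, Syce3, Sycp2 and Hormad2, only Sycp2 had a start summit, against 52.0% of all genes with neither. The pairing of the motifs was looked at after their separate counts were seen. Either motif contains CpG, and its share among genes of like CpG content was not computed.

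**Figure D3:**
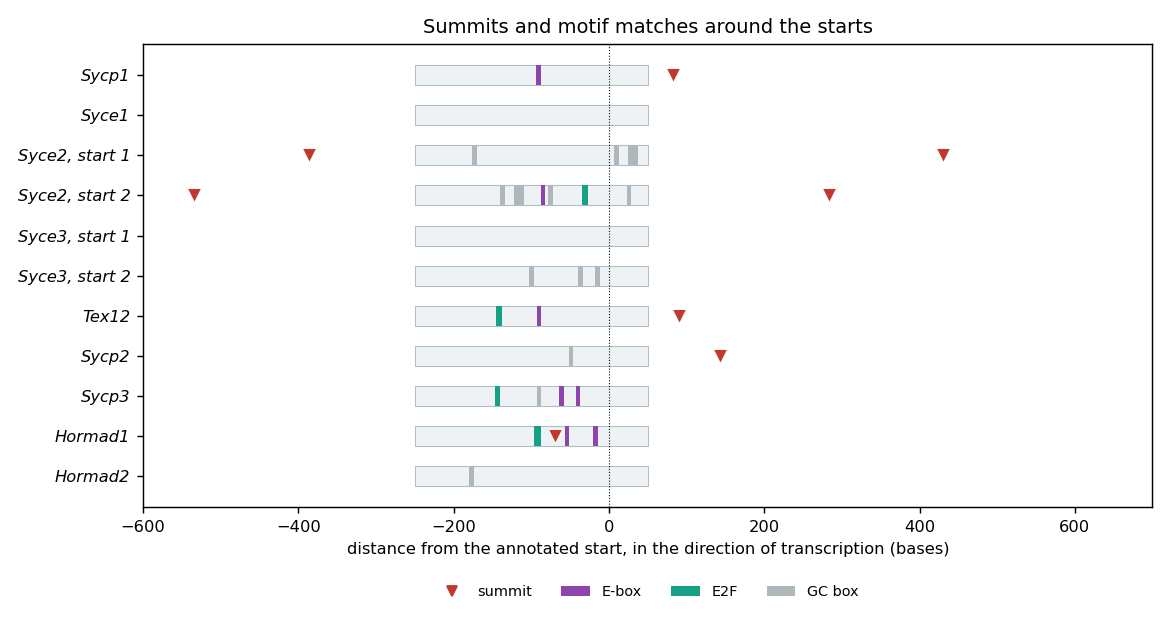
Motif matches (coloured bars) in the 300-base window (pale box) and summits (triangles) around each annotated start, by distance from that start in bases in the direction of transcription. The summit of Hormad1 lies 69 bases upstream between an E2F match and an E-box, those of Sycp1, Tex12 and Sycp2 lie downstream of the window, and no triangle is present for Syce1, Syce3, Sycp3 and Hormad2. The starts of Hormad1 that are 2 bases apart are drawn as 1.

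The distance between motif and summit varied. In Hormad1, shown above, the summit lay 12 bases from the nearer E-box and 20 bases from the E2F match, and a second E-box was 49 bases away. In Sycp1 and Tex12, whose single E-boxes begin 94 and 93 bases upstream of the start, the summit was 172 and 178 bases from the E-box. In Syce2 the E-box lay 366 bases from the downstream summit, the nearer of its pair. Sycp3 has E-boxes beginning 64 and 43 bases upstream of its start and an E2F match beginning at 147 bases, close to where Tex12 has its own at 146, but has no summit there.

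Other motifs were counted in the same windows. The GC box GGGCGG, bound by SP1-like factors, stood in 5 of the 9 genes, Syce2, Syce3, Sycp2, Sycp3 and Hormad2, and only Syce2 and Sycp2 of these had a start summit. It was present in 49.8% of all genes, and of the genes with it 82.1% had a start summit, against 30.9% of genes without it. The CCAAT letters stood in Syce3 and Sycp3 alone (42.7% of all genes). The cyclic AMP response element TGACGTCA (2.58% of all genes) and the shorter TGACGT that it contains (9.72%) stood in none of the 9.

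CpG content was read over the same windows. CpG-rich promoters lack DNA methylation in most cells, although those of many germline genes carry it in somatic tissue. The windows of the 5 genes with a start summit held 21 CpG in Sycp1, 26 in Tex12, 24 in Hormad1, 19 and 33 at the starts of Syce2 and 10 in Sycp2. Those of the 4 without held 14 in Syce1, 15 in Sycp3, 16 in Hormad2 and 5 and 15 at the starts of Syce3. Sycp2 thus had a summit with fewer CpG than Syce1, Sycp3 and Hormad2, which had none. Over all 21045 annotated starts the median was 22 CpG with a summit within 1 kb and 4 without.

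Among all starts with 15 to 19 CpG, 85.1% had a summit within 1 kb. Sycp3 and Hormad2 fall in this class and have none, which places them among the 14.9% without, as does the start of Syce3 with 15 CpG. The first start of Syce2, with 19 CpG, is in the same class and has a summit 387 bases upstream. Among starts with 10 to 14 CpG, the class of Sycp2 and Syce1, 68.2% had one. Among those with 20 to 24, the class of Sycp1 and Hormad1, the share was 90.9%.

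**Figure D4:**
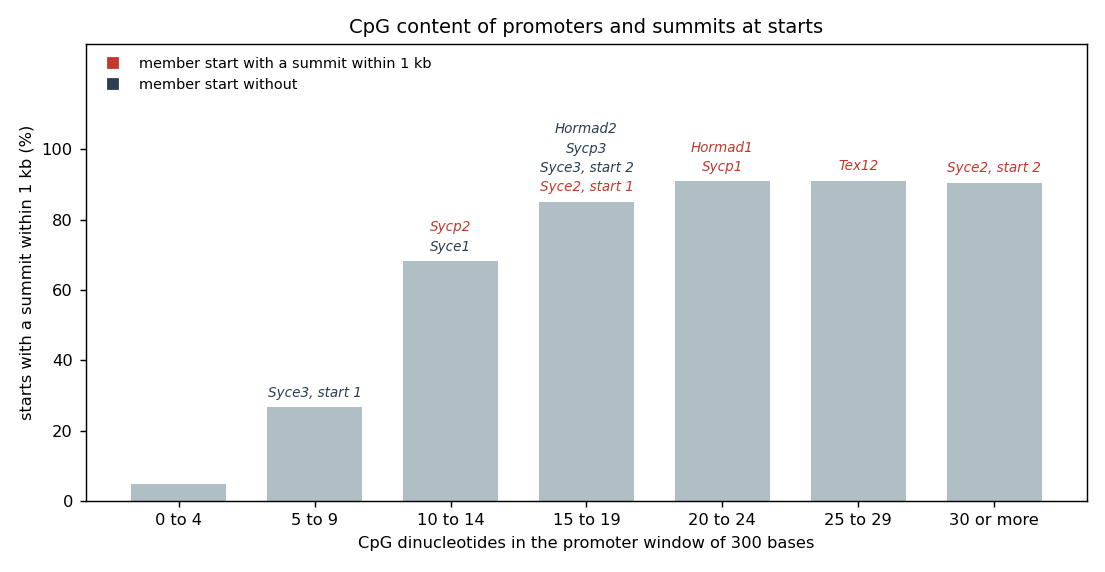
Share of annotated starts of protein-coding genes with a summit within 1 kb (bars, %) by the number of CpG dinucleotides in the 300-base window. Names above the bars place each start of the synaptonemal complex genes in its class, red with a summit and dark without. Sycp3, Hormad2 and the second start of Syce3 stand without a summit in the class of 15 to 19 CpG, where 85.1% of starts had one. The first start of Syce2 stands in that class with a summit.

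Genes that work beside the complex were read in the same way. A summit inside or within 10 kb was found for 66.7% of the synaptonemal complex genes, for 45 of 51 such meiotic genes matched in the annotation (88.2%) and for 69.2% of all protein-coding genes. A start summit was found for 55.6% of the synaptonemal complex genes, for 29 of the 40 meiotic genes with an annotated start (72.5%) and for 56.4% of all. The difference between the lists was not tested, and the lists were chosen with earlier results of these data known. The 9 genes are also few: 1 gene moves their share by 11.1 percentage points.

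Among the 9 genes tied to synapsis itself, 6 had a summit inside or within 10 kb (66.7%, against 69.2% of all protein-coding genes). These 6 also had a start summit, out of 7 with an annotated start (85.7%, against 56.4% of all). They include Six6os1, which encodes a further protein of the central element, with a summit 257 bases downstream of its start, and Trip13, which encodes the ATPase that removes HORMAD proteins from paired axes, with one 48 bases downstream. Brme1, which encodes a BRCA2-complex partner in meiotic recombination, had its closest summit 84 bases from a boundary. Sycp2l, a relative of Sycp2 used in oocytes, had none within 10 kb (34777 bases), unlike Sycp2. Tex11, an X-linked gene of crossover formation, was the only one of all 51 with no summit within 50 kb.

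All 4 meiotic cohesin genes, whose proteins build the axis that the lateral element coats, had a summit within 10 kb. Smc1b, Rec8 and Rad21l had it 76, 178 and 197 bases from a boundary. The 5 matched genes of telomere attachment also had one each, with Sun1, Terb1 and Kash5 closest at 126, 362 and 445 bases. The share of all protein-coding genes with a summit inside or within 10 kb was 69.2%. A start summit was found for 3 of the 4 cohesin genes and for all 3 telomere attachment genes with an annotated start.

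All 8 genes of double-strand break formation and all 9 of strand exchange had a summit inside or within 10 kb, against 69.2% of all protein-coding genes. Of those with an annotated start, 4 of 7 and 6 of 7 had a summit within 1 kb of it, against 56.4% of all. In the crossover list this share was 3 of 7 and in the list of meiotic entry 4 of 5. In the strand exchange list Psmc3ip had one 70 bases and Mnd1 one 87 bases from a boundary. In the crossover list 8 of 10 had a summit inside or within 10 kb, with Mlh3, Rnf212 and Msh4 closest (31, 113 and 133 bases), and Hfm1 and Shoc1 had none. In the list of meiotic entry 5 of 6 had one, with Rbm46, Meioc and Meiosin closest (33, 38 and 54 bases), and Mael had none.

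E-box and E2F-type letters stood together in 1 window in 4 of the 9 synaptonemal complex genes (44.4%), in 4 of these 40 genes (10.0%), Stag3, Rec114, Rnf212 and Meiosin, and in 0.724% of all genes. Counted apart, the E-box stood in 5 of the 9 and 8 of the 40 (20.0%), and the E2F-type letters in 4 of the 9 and 13 of the 40 (32.5%). Either motif contains CpG, and 5838 of the 21045 annotated starts held only 0 to 4 CpG. No start of the 9 genes falls in that class, and shares among genes of like CpG content were not computed.

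**Figure D5:**
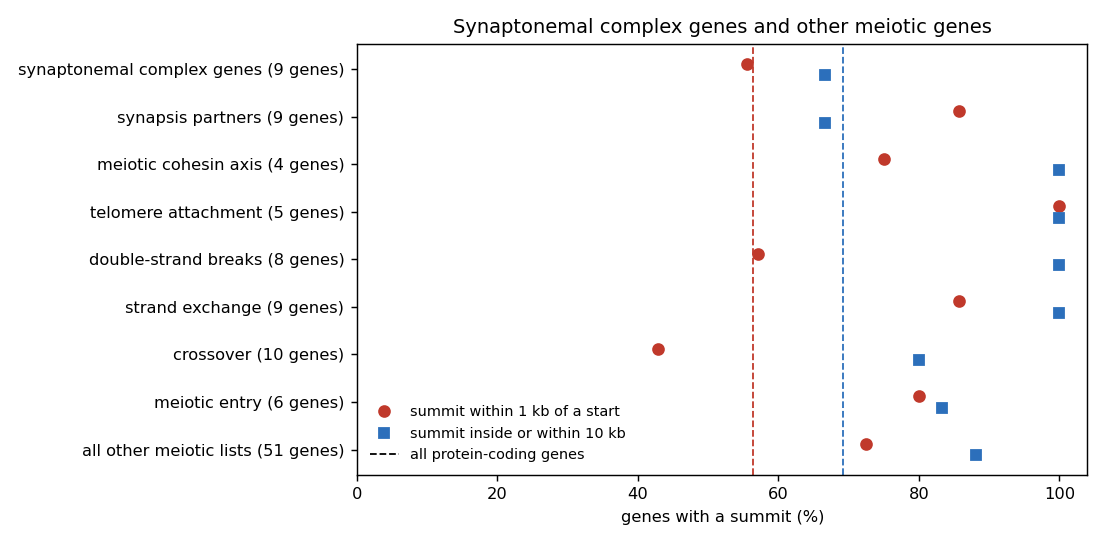
Share of genes with a summit within 1 kb of an annotated start (circles) and inside or within 10 kb of the gene (squares) in each list, with all protein-coding genes as dashed lines. Circles count only the genes of a list with an annotated start. The synaptonemal complex genes stand at 55.6% and 66.7%, just below the lines at 56.4% and 69.2%.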

How the data were processed

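Peak summits were analysed from ChIP with an anti-V5 antibody. The values deposited by the authors are base positions, 1 per summit, with no score or library, on mm10 per the submitters' processing notes. These notes name HOMER 4.9.1, MACS2 2.1.1.20160309, bedtools, SAMtools 1.3, Picard 2.1.0, Bowtie 1.1.2, cutadapt 1.9.1 and Trim Galore 0.4.1, without settings. The sources used here do not say which libraries gave the peaks or at which threshold. Start equals end in all 32927 rows, so counting from 0 or 1 is open by 1 base.

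Genes came from a RefSeq table of GRCm38.p6 and starts from RefSeq promoter windows, given for 17274 of 21631 protein-coding genes on the autosomes and X, among them all 9 members. Exons were not used. A summit counted as within 10 or 50 kb when it lay inside the gene or that close to an end. The members and lists were chosen with earlier results of these data known. The lists held 53 names, of which 51 matched and 40 had a start. For each list, genes named are those with the closest summit to a boundary, up to 3, and any with none within 50 kb, with Six6os1, Sycp2l, Hfm1, Shoc1, Mael and neighbours over 10 kb from a member named after their values were seen. The values of 1 further gene that this rule names are not reported here. Stretches between summits, CpG classes and the pairing of motifs were also added after values were seen. There are no replicates, so values are descriptions without tests. Distances and counts were tested on simulated data. The planned protein comparison was not made, as no protein sequences were used. Python 3.11.15, numpy 2.4.6, pandas 2.3.3 and matplotlib 3.10.9 were used.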

Additional observations from a re-analysis of the deposited data

How the results depend on the processing

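The count of synaptonemal complex genes with a summit within 10 kb, 6, held at 1, 5 and 20 kb, by nearest gene and with summits under 1 kb apart merged, and was 5 by starts alone. The 5 genes with a start summit became 4 at 250 bases and stayed 5 at 500 bases and 2 kb; these distances were chosen after seeing the data, as were the outermost start, also 5, and the other ways of assigning a summit to a gene, which left 7 of the 10 summits with the synaptonemal complex gene. Of 48 alternative values, 44 stayed within 1.5 times. With the shorter core GATAA the GATA count was 1 (Sycp3) in place of 0, with TCGCGC the E2F count was 2 in place of 4, and over the 250 bases before the start the CCAAT count was 1 in place of 2. With the shorter ACGTG the E-box count was 7 in place of 5, against 23.5% of all genes. It added Syce1 and Syce3, which have no start summit. TCGCGC shortens only TTTCGCGC, and no shorter form of TTCCCGCC or GCGGGAA was searched. The letters TCGCGC are found in Sycp1 and Tex12 and not in Hormad1, Syce2 and Sycp3, so the pairing of motifs depends on which letters are searched. How the pairing holds with a shorter form of GCGGGAA was not tested. The 50 kb count of 9 was 6 by nearest gene. By starts alone the closest summit of Sycp2 lay at 143 in place of 261 bases. A stricter peak score was not run, since the list holds none. No paired analysis was possible because summits are not tied to libraries, of which there is 1 per group. Where no summit is listed, binding may lie under the authors' threshold, since depth is unknown.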
